A study of Allium sativum with 84 samples.

Results

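A total of 95 genes of the 57561 in the garlic FPKM table were expressed in few accessions only. These genes were chosen by their own FPKM (fragments per kilobase of a gene relative to library size): at least 10 in 1 to 5 accessions, and at most 0.1 in at least 75 of the 84. A limit of 200 genes was not reached, so every gene that met the rule was kept. A gene at 10 FPKM or more in an accession is called expressed there, and one at 0.1 FPKM or less is called off. Because these values chose the genes, levels, counts per accession and sharing are given as descriptions without a test.

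Bulk RNA was sequenced from enlarging bulbs of 84 garlic (Allium sativum) accessions, with 1 library for each accession. The study describes growth on 1 farm in Shandong, but for another number of accessions. The accessions differed in their collection site: 68 came from China, among them Shandong with 15, Xinjiang with 9 and Shanxi with 6, and 16 came from 11 other countries, among them Canada with 5 and Greece with 2. Site names are spelled as in the labels (Amrica, Eygpt, Xiangjiang, Yunan), 6 accessions from China carried no province, and the replicate numbers follow the order of deposition and only name an accession. The steps of single reads in low values gave a relative depth of 0.449 to 1.03 per library. A library detected 31485 to 36548 genes, and no libraries were identical. Accessions were grouped by site alone, and genetic groups were not used here. The bulb label was not checked against marker genes, since the table pairs no gene ID with a name.

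Garlic is sterile and is propagated by cloves, so an accession is a clone whose plants share the same gene set and the same alleles. The bulb is a storage organ made of swollen buds, the cloves. In such a crop a gene may be lost from, or silent in, a whole lineage, and accessions from distant sites can be the same clone or close relatives. Reads were assigned to the genes of 1 reference genome, so in an accession listed at 0 a silent gene cannot be told apart from one that is missing or too different in sequence, and in bulk tissue fewer expressing cells and less RNA per cell cannot be told apart.

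Most of the 95 genes were expressed in a single accession. There were 63 genes (66.3%) at 10 FPKM or more in 1 accession, 11 in 2, 12 in 3, 3 in 4 and 6 in 5. Of the 7980 values of these genes, 163 were at 10 FPKM or more, 417 lay between 0.1 and 10, and 92.03% were exactly 0. The genes were above 0.1 FPKM in 1 to 9 accessions, with a median of 7, so a gene counted in 1 accession was often present at a lower level in several more. Among the 63 genes expressed in 1 accession, the second highest value was at least 5 FPKM for 28, from 1 to 5 for 13, above 0.1 but under 1 for 12, and at most 0.1 for 10. The highest value was at least 5 times the second for 30 of the 63.

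The maximum FPKM of the 95 genes ran from 10.2 to 157 with a median of 14.6, and 50 of them stayed under 15. There were 27 genes at 20 FPKM or more and 7 at 50 or more. In the accession where it was highest, a gene exceeded 57.0% to 96.1% of the genes detected in that library, with a median of 67.3%. A place above most detected genes follows from the limit of 10 FPKM and is no result. The highest place was that of Asa1G02582.1 in Shanxi replicate 2, at rank 1291 of that library. The members together made up at most 0.0299% of the FPKM of any library, in Shanxi replicate 2.

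**Figure D1:**
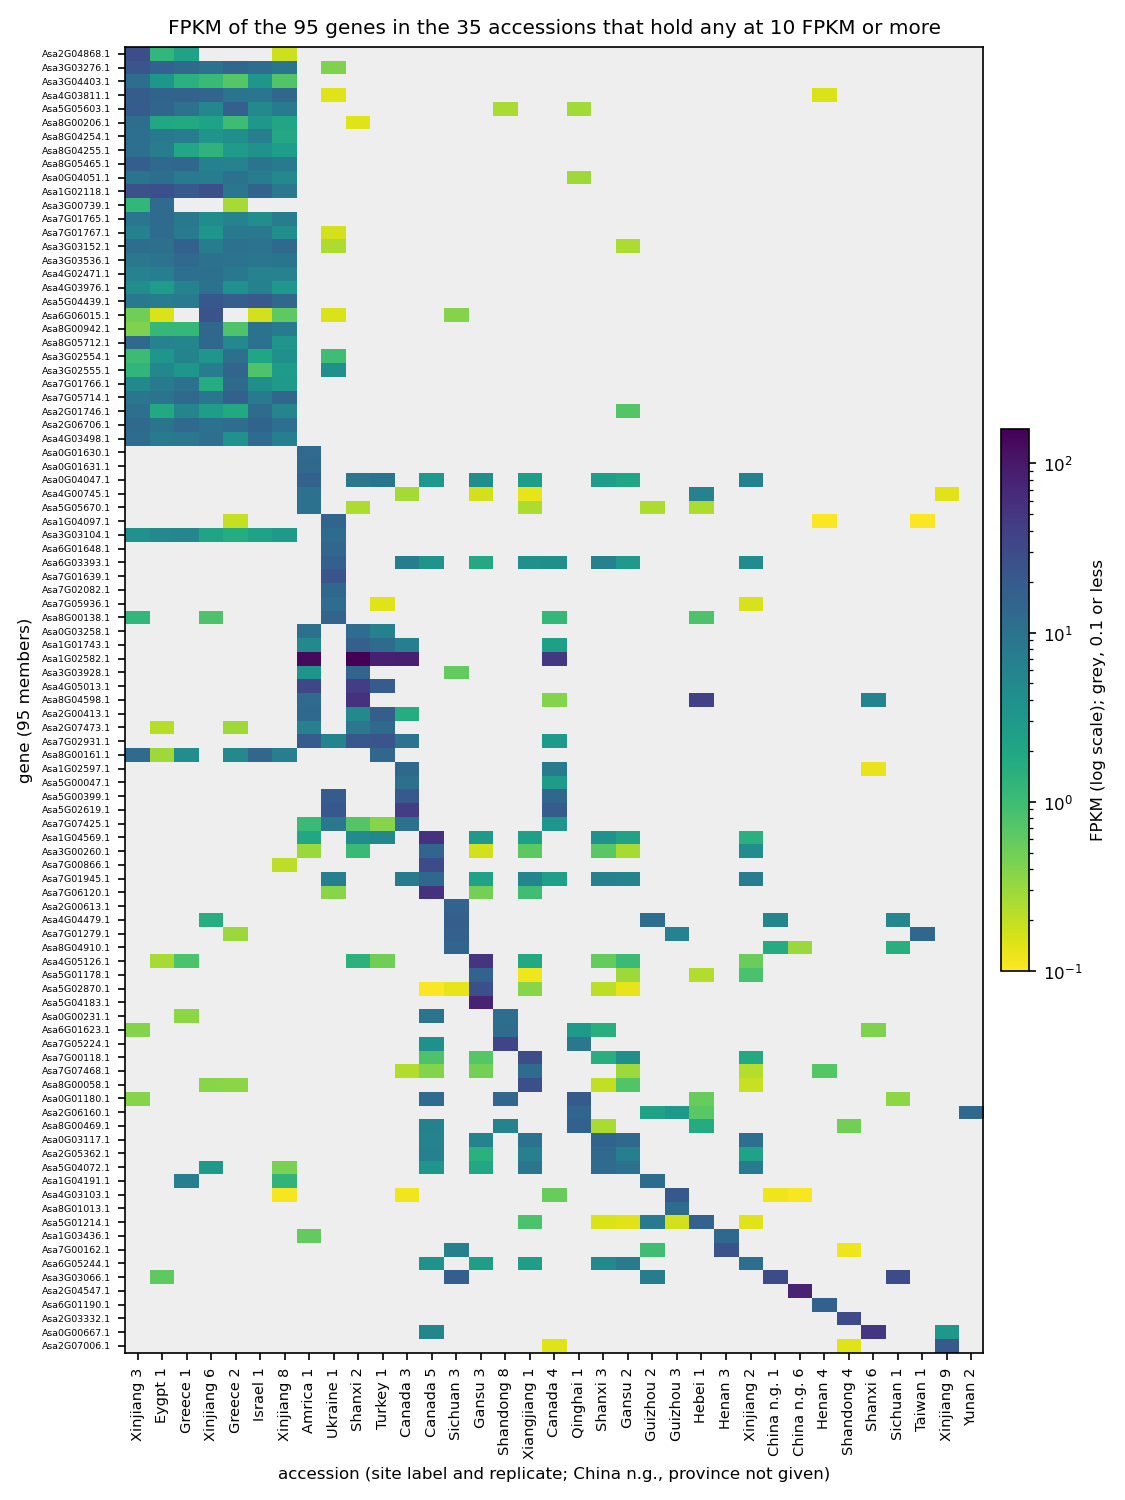
FPKM of the 95 genes (rows) in the 35 accessions that express any of them (columns), on a log colour scale with values of 0.1 or less in grey; each row is placed under the accession in which the gene is highest. The block at the upper left holds the 7 accessions Xinjiang replicates 3, 6 and 8, Greece replicates 1 and 2, Israel and Eygpt, in which 27 genes were above 0.1 FPKM in every one.

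Reads behind the values could be counted for most genes. For 75 of the 77 genes with at least 4 values above 0, a step was found that turned all 590 values above 0 into whole reads within 0.01 (100%). The expressed values of these genes rested on 22 to 639 reads, with a median of 74. In the shallowest library 1 read of such a gene was worth 0.0321 to 0.575 FPKM with a median of 0.257, and it exceeded the limit of 0.1 for 66 of the 75 genes, or for 42 in the deepest. A gene was therefore mostly off when no read was assigned to it, and 99.2% of the off values were exactly 0. A count of 0 in the shallowest library allows a level of up to 0.0964 to 1.73 FPKM (3 reads), median 0.771, by counting error alone, so lower levels were not detectable at this depth.

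Asa1G02582.1 had the highest maximum of all. It stood at 157 FPKM in Shanxi replicate 2, 132 in Amrica, 86.8 in Canada replicate 3, 82.8 in Turkey and 48.9 in Canada replicate 4, and was at 0 in the remaining 79 accessions. No intermediate value occurred between these 5 accessions and the rest.

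Of the other genes among the 10 of highest maximum, a pair was found in 1 accession alone. Asa5G04183.1 stood at 78.6 FPKM in Gansu replicate 3 and was at 0 in the other 83 accessions. Asa2G04547.1 stood at 76.7 FPKM in replicate 6 of the accessions without a province and was likewise at 0 in the other 83. These were the highest of 8 genes at 0 in all accessions but 1. The 6 others, named after their values were seen, were Asa2G03332.1 at 29.1 FPKM in Shandong replicate 4, Asa7G01639.1 at 22.8 and Asa6G01648.1 at 14.02 in Ukraine, Asa6G01190.1 at 16.2 in Henan replicate 4, Asa2G00613.1 at 15.6 in Sichuan replicate 3, and Asa0G01630.1 at 12.1 in Amrica.

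A further 4 of the 10 were high in 1 accession and low in several. Asa1G04569.1 stood at 56.5 FPKM (363 reads) in Canada replicate 5 and at 1.47 to 5.11 in 8 more accessions (5 to 19 reads). Asa7G06120.1 stood at 55.5 FPKM (279 reads) in the same accession, and the next value was 0.966 in Xiangjiang (5 reads). Asa4G05126.1 stood at 53.0 FPKM (315 reads) in Gansu replicate 3, and the next value was 1.79 in Xiangjiang (13 reads). In each of these the gap below the highest accession was wide. Asa0G00667.1 stood at 49.2 FPKM (151 reads) in Shanxi replicate 6 and at 5.50 (36 reads) in Canada replicate 5.

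The last 3 of the 10 were shared. Asa8G04598.1 stood at 55.6 FPKM in Shanxi replicate 2, 37.3 in Hebei replicate 1 and 12.1 in Amrica, with 5.78 in Shanxi replicate 6 and 3.32 in Shandong replicate 14. Asa4G05013.1 stood at 42.3 FPKM in Shanxi replicate 2, 33.1 in Amrica and 18.5 in Turkey, and was off elsewhere. Asa5G02619.1 stood at 41.5 FPKM in Canada replicate 3, 21.9 in Ukraine and 18.5 in Canada replicate 4, and was off elsewhere. Each of these 3 genes was thus expressed in accessions of more than 1 country.

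**Figure D2:**
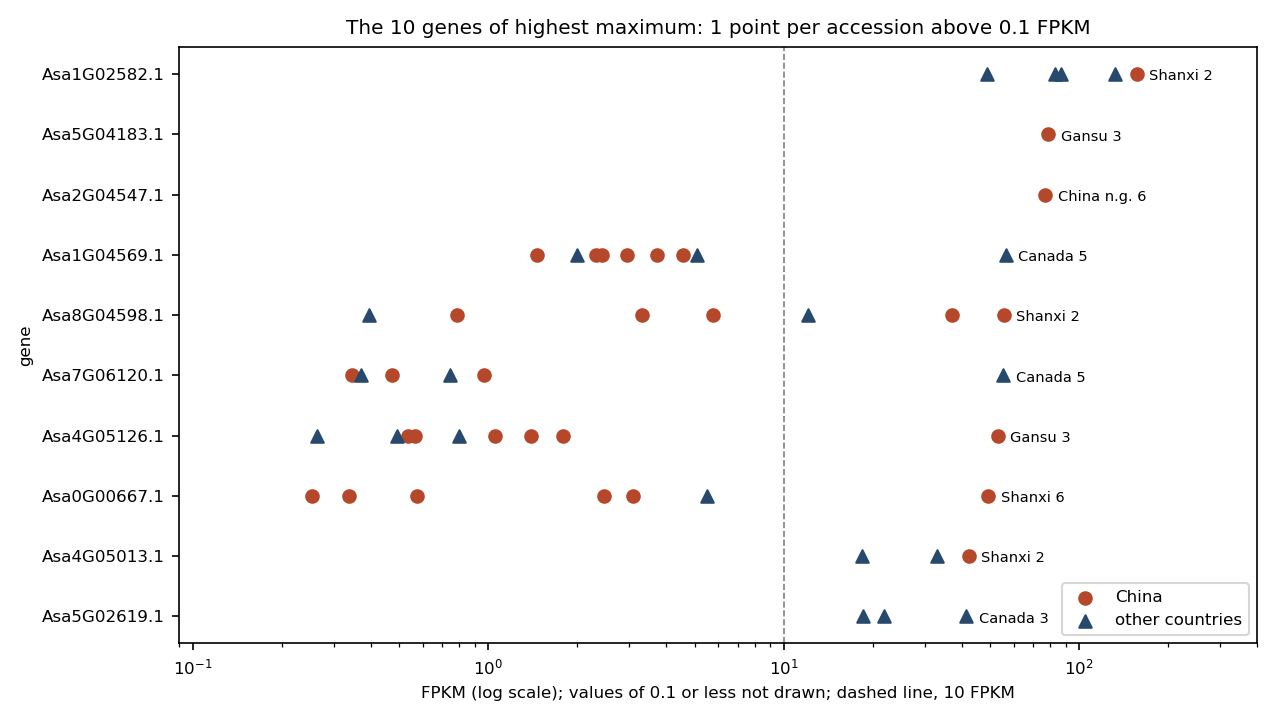
FPKM (log scale) of the 10 genes of highest maximum, 1 point for each accession above 0.1 FPKM, circles for China and triangles for other countries, with the highest accession named and the dashed line at 10 FPKM. Asa1G02582.1 had 5 points, from 48.9 to 157, and nothing lower, whereas Asa1G04569.1 had 1 point at 56.5 and 8 at or under 5.11.

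Holding of these genes was concentrated in few accessions. Of the 84 accessions, 35 expressed at least 1 of the 95 genes, 49 expressed none, and 12 had none above 0.1 FPKM. Xinjiang replicate 3 expressed the most, 16, and had 34 above 0.1 FPKM. Amrica expressed 11. Eygpt, Greece replicate 1, Ukraine and Xinjiang replicate 6 expressed 10 each, and Greece replicate 2 and Israel 9 each. These 8 accessions held 85 of the 163 expressed values (52.1%) and 51 different genes. Shanxi replicate 2 and Turkey followed with 7 each, and Canada replicates 3 and 5 with 6 each.

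The leading accessions differed in how many of their genes they alone expressed at 10 FPKM or more. Lower levels elsewhere were common, as for Asa8G04254.1 at 10.88 FPKM in Xinjiang replicate 3 and 8.08 in Eygpt. Ukraine was the only expressing accession for 8 of its 10 genes, among them Asa7G01639.1 at 22.8 FPKM. Amrica and Xinjiang replicate 3 were alone for 5 each, Canada replicate 5 for 5 of its 6 and Gansu replicate 3 for all 4 of its genes. Greece replicate 1 and Israel were alone for none. Xinjiang replicate 8 expressed 5 genes, was highest for none of the 95, and yet had 34 above 0.1 FPKM, as many as Xinjiang replicate 3.

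**Figure D3:**
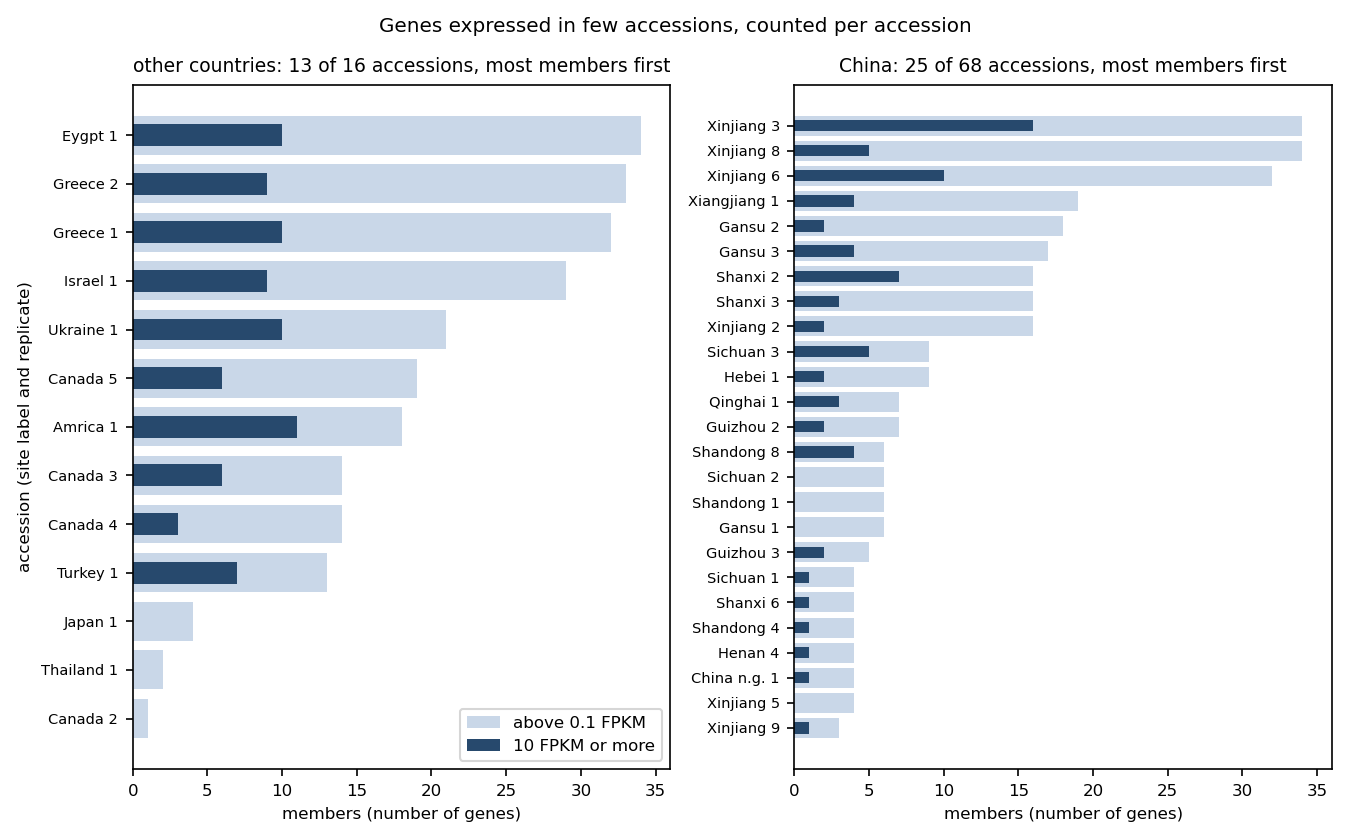
Number of the 95 genes above 0.1 FPKM (light bars) and at 10 FPKM or more (dark bars) in each accession, for other countries and for China; 13 of 16 and the leading 25 of 68 accessions are drawn. Xinjiang replicate 3 reached 16 genes at 10 FPKM or more and Amrica 11, and the light bars of Eygpt, Xinjiang replicate 3 and Xinjiang replicate 8 reached 34.

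The 3 strongest genes of Xinjiang replicate 3 were Asa2G04868.1, Asa1G02118.1 and Asa3G03276.1. Asa2G04868.1 stood at 27.3 FPKM (149 reads) there, and next were Greece replicate 1 at 2.25 and Eygpt at 1.20. Asa1G02118.1 stood at 26.6 FPKM in Eygpt, 26.1 in Xinjiang replicate 6, 25.75 in Xinjiang replicate 3, 20.5 in Greece replicate 1, 15.5 in Israel, 8.72 in Greece replicate 2 and 8.53 in Xinjiang replicate 8, and was at 0 in the other 77. Asa3G03276.1 stood at 23.03 FPKM in Xinjiang replicate 3, 15.8 in Eygpt, 13.7 in Greece replicate 2, 12.6 in Greece replicate 1, 11.4 in Israel, 9.83 in Xinjiang replicate 6 and 9.20 in Xinjiang replicate 8, with 0.414 in Ukraine. The first of these genes was high in 1 accession, and the others ran through the same 7 accessions.

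In Eygpt the 3 strongest were Asa1G02118.1, Asa3G03276.1 and Asa4G03811.1, the last at 18.1 FPKM in Xinjiang replicate 3, 15.2 in Greece replicate 1, 14.9 in Eygpt, 14.4 in Xinjiang replicate 6, 13.3 in Xinjiang replicate 8, 9.32 in Greece replicate 2 and 8.92 in Israel. In Amrica they were Asa1G02582.1, Asa4G05013.1 and Asa7G02931.1. Asa7G02931.1 stood at 22.9 FPKM in Turkey, 21.9 in Shanxi replicate 2, 18.5 in Amrica, 9.72 in Canada replicate 3, 5.68 in Ukraine and 3.03 in Canada replicate 4. All 3 of these genes of Amrica were also expressed in Turkey and Shanxi replicate 2, whereas those of Eygpt were not.

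By site, Xinjiang held the most expressed values, 34, in 5 of its 9 accessions and over 26 different genes. Greece held 19 in both of its accessions, Canada 15 in 3 of 5, Amrica 11 in its single accession, and Shanxi 11 in 3 of 6. Shandong, the site with most accessions, held 5 expressed values in 2 of 15. Even within a site the holding was uneven: in Xinjiang it ran from 0 to 16 with a median of 1, and in Canada from 0 to 6 with a median of 3.

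Accessions from other countries held 81 expressed values (49.7%) although they were 16 of 84. They expressed 5.06 ± 4.49 of the genes each (SD, n = 16; median 6, 10 holders), against 1.21 ± 2.61 in China (SD, n = 68; median 0, 25 holders). The ranges overlapped, since the accession with most, Xinjiang replicate 3, came from China. Of the 95 genes, 40 were expressed only in China, 32 only in other countries and 23 in both. Of the 32 genes expressed in 2 to 5 accessions, 23 were expressed in both, and none stayed within 1 site. Leaving out Xinjiang replicate 3 raised the share of values in other countries to 59.5%.

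The order of the deposited columns moved with these counts. Accessions in columns 1 to 7 expressed 4.14 of the genes on average, those in columns 8 to 23 3.38 and those in columns 24 to 84 1.31. The limits of these blocks were set for the present work, and the labels do not mark them. What the column order stands for is not given in the sources used here. Within the last block the means were 0.673 in China (n = 52) and 5 in other countries (n = 9), within the second 2.4 (n = 10) and 5 (n = 6), and the first held 1 accession from another country, with 6 genes. The number of genes expressed had a Pearson correlation across the 84 accessions of -0.037 with relative depth (Spearman 0.058) and of -0.022 with the number of genes detected (Spearman 0.17). With the median likeness of an accession to all others (Pearson r between libraries across 35953 genes that are no members) it was -0.45 (Spearman -0.58), and -0.44 without the 2 accessions farthest from the median. These correlations are given as descriptions, over accessions some of which are related.

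The country of an accession did not enter the rule, whereas the FPKM did, so the comparison of other countries with China is given gene by gene as a description of where the values lay, and nothing is read from the number of members called. In the limma fit on log2(FPKM + 1) over all 84 accessions, 1323 of the 36007 genes that reached 1 FPKM in 4 accessions or more were called at an adjusted p under 0.05, 442 (1.23% of those tested) higher and 881 (2.45%) lower in other countries. Of the 95 genes, 54 passed this filter and 9 were called, all 9 higher in other countries. Of the 54, 7 passed through accessions from China alone and 1, Asa7G07425.1, through those of other countries alone, where it was bound to be higher. Each of the 9 called reached 1 FPKM in 4 or more accessions from other countries, and in fewer than 4 from China. They thus met the filter through the group where they were higher, so their levels and differences are given below without p-values. Without the filter all 95 could be tested, and 11 were called, again all higher. The rule leaves at most 9 accessions above 0.1 FPKM, so a gene held only in China (68 accessions) could hardly be called lower. The shared direction is therefore no result. The fit counted each accession as independent, also those that were alike over other genes. A gene expressed in few accessions rests on few values in either group, so single libraries moved these counts. Without Xinjiang replicate 3, 6 or 8 the called members numbered 27, 25 and 22. Without Thailand or Australia they were 15, and without Russia 14. Without Eygpt, Greece replicate 1, Greece replicate 2 or Israel 3 were called. The count over all genes fell to 570 without Eygpt, 605 without Greece replicate 1, 533 without Greece replicate 2, 731 without Israel and 846 without Canada replicate 3, and rose to 2080 without Thailand. With the column block defined above as a covariate, 19 of the members were called, and Asa1G02582.1 was not.

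Asa7G07425.1 was called, but it passed the filter through other countries alone, so only its values are given. It stood at 10.2 FPKM in Canada replicate 3, 8.44 in Ukraine, 3.41 in Canada replicate 4, 1.03 in Amrica, 0.713 in Shanxi replicate 2, 0.387 in Turkey, 0.167 in Shandong replicate 14 and 0.116 in Jiangsu replicate 2. Its mean was 1.47 ± 3.20 FPKM in other countries (SD, n = 16) and 0.0146 ± 0.0894 in China (SD, n = 68), a difference of 0.64 ± 0.14 (SE) in log2(FPKM + 1). The higher values lay in other countries, although 11 of the 16 accessions from there were at 0.1 FPKM or less, as were 65 of the 68 from China.

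Asa7G02931.1, given above for Amrica, differed by 0.99 ± 0.24 (SE) in log2(FPKM + 1). In China it reached 1 FPKM only in Shanxi replicate 2. Without Canada replicate 3, Canada replicate 4, Ukraine or Amrica, Asa7G07425.1 fell below the filter and was not tested. Asa1G02582.1 differed by 1.49 ± 0.40, with 21.9 ± 42.1 FPKM in other countries and 2.31 ± 19.01 in China, and it was not called without Canada replicate 3. All of its mean in China came from Shanxi replicate 2.

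The 6 remaining calls were of genes found in both Greek accessions, Israel, Eygpt and Xinjiang replicates 3 and 8, all at 0.1 FPKM or more. Asa3G03104.1 was highest in Ukraine, at 11.8 FPKM, followed by Greece replicate 1 at 5.26 and Eygpt at 5.01 (difference 0.66 ± 0.18). The other differences were 0.61 ± 0.17 for Asa3G02554.1, 0.70 ± 0.20 for Asa7G01766.1, 0.65 ± 0.19 for Asa3G02555.1, 0.73 ± 0.21 for Asa7G01767.1 and 0.72 ± 0.22 for Asa8G00161.1. Asa8G00161.1 was not called without the filter or with median-ratio scaling. Each of the 6 was no longer called when 1 particular library was left out.

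The largest recurring pattern was formed by 7 accessions: Xinjiang replicates 3, 6 and 8, Greece replicates 1 and 2, Israel and Eygpt. In all 7 of them 27 of the 95 genes were above 0.1 FPKM. Of these, 26 were highest within the 7, and 14 were at 0 in all other 77 accessions. The exception was Asa3G03104.1, highest in Ukraine. These accessions were put together here because the genes recurred in them, so the counts describe the genes and are no test of the accessions. They held 69 of the 163 expressed values, and no gene was expressed in all 7, which the limit of 5 did not allow.

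Within the 7 accessions the levels of a gene differed widely. Over the 26 genes the highest value was 1.51 to 32.4 times the lowest, with a median of 3.37, and for 11 genes it was at most 3 times. Asa3G03536.1 was the most even, at 12.8 FPKM in Greece replicate 1, 10.1 in Xinjiang replicate 6, 9.54 in Greece replicate 2, 9.52 in Eygpt, 9.15 in Xinjiang replicate 8, 8.78 in Israel and 8.42 in Xinjiang replicate 3. Asa8G00942.1 was the least even, at 13.4 FPKM in Xinjiang replicate 6, 10.1 in Israel, 7.496 in Xinjiang replicate 8, 1.17 in Greece replicate 1, 1.16 in Eygpt, 0.761 in Greece replicate 2 and 0.414 in Xinjiang replicate 3. Of the 27 genes, 12 were expressed in 1 accession of the 84, which for Asa3G03104.1 was Ukraine and for the other 11 one of the 7.

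**Figure D4:**
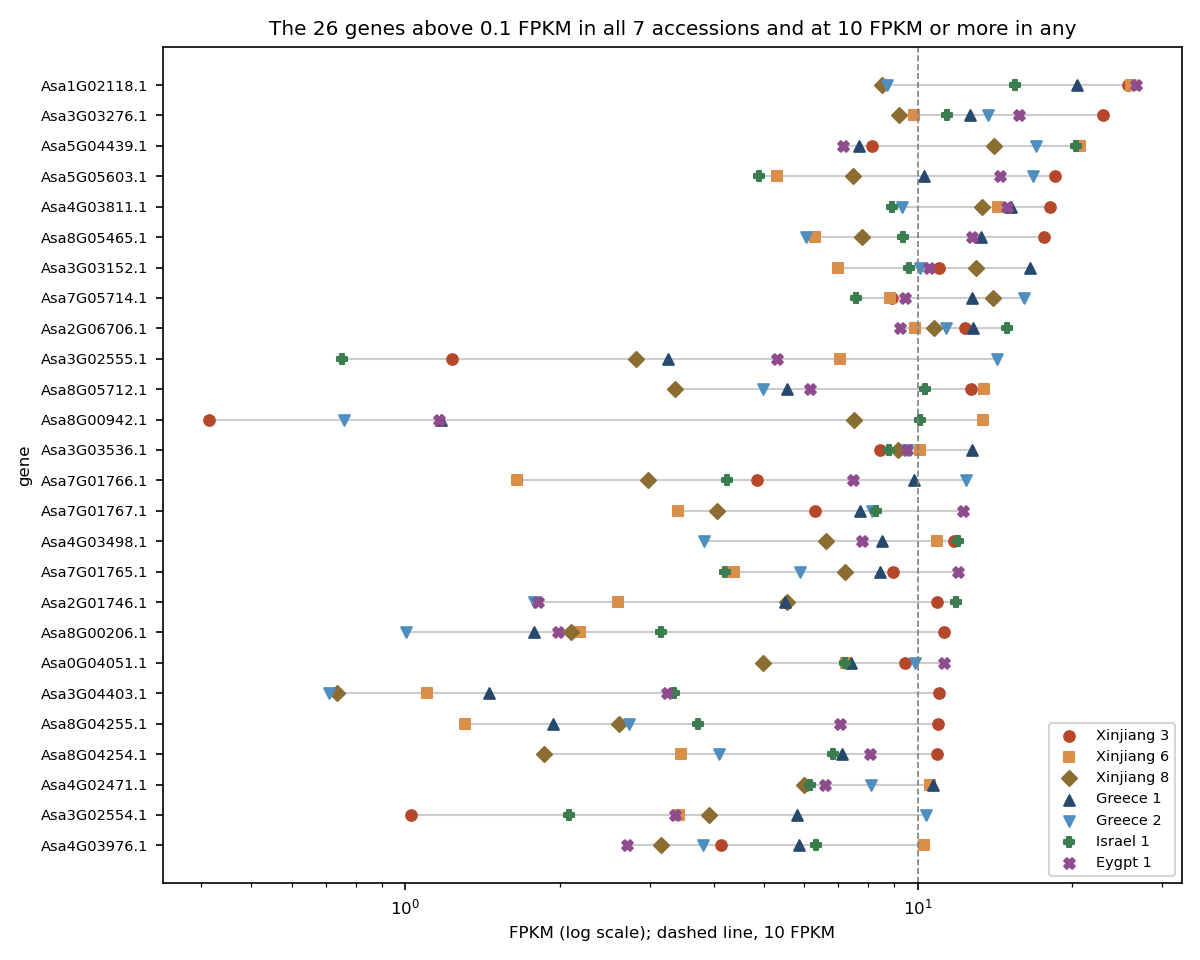
FPKM (log scale) of the 26 genes that were above 0.1 FPKM in all of 7 accessions and at 10 or more in at least 1 of them, 1 symbol for each accession; the grey line joins the lowest and the highest and the dashed line marks 10 FPKM. Asa3G03536.1 spanned 8.42 to 12.8 FPKM and Asa8G00942.1 spanned 0.414 to 13.4.

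The limit of 5 accessions left further genes of this pattern outside. A total of 22 genes were off in at least 75 accessions but expressed in more than 5, and 19 of them were expressed only within these 7. Asa0G03482.1, with a maximum of 113.8 FPKM in Eygpt, and Asa0G03483.1, with 87.1 in Greece replicate 1, were the highest, each expressed in 7 accessions, and they are adjacent in gene ID. Just inside this limit lay Asa1G02582.1, Asa1G02118.1, Asa3G03276.1 and Asa4G03811.1, each expressed in 5.

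A smaller pattern joined Shanxi replicate 2, Amrica and Turkey. There 10 genes were above 0.1 FPKM in all 3, 8 of them highest within the 3, and 3 were expressed in all 3: Asa1G02582.1, Asa4G05013.1 and Asa7G02931.1. Shanxi replicate 2 shared 5 of its 7 expressed genes with Amrica (71.4% of its own and 45.5% of the 11 of Amrica). Turkey shared 4 of its 7 with each of the others.

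Canada replicate 4 held most genes of Canada replicate 3 at lower levels. Of 11 genes above 1 FPKM in Canada replicate 3, all 11 were lower in Canada replicate 4, at 0 to 0.667 times with a median of 0.369, and 10 were above 0.1 there. Asa5G00399.1 stood at 20.4 FPKM in Canada replicate 3, 18.6 in Ukraine and 13.6 in Canada replicate 4, and, like Asa5G02619.1, was off elsewhere. Among the other 3 Canadian accessions, replicate 5 was led by Asa1G04569.1 and Asa7G06120.1, and replicates 1 and 2 expressed none of the 95.

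In 6 accessions, namely Shanxi replicate 3, Gansu replicates 2 and 3, Xinjiang replicate 2, Xiangjiang and Canada replicate 5, 10 genes were above 0.1 FPKM in all 6, and 8 of them were highest there. Asa0G03117.1 stood at 14.99 FPKM in Shanxi replicate 3, 12.5 in Gansu replicate 2, 10.7 in Xinjiang replicate 2, 10.2 in Xiangjiang, 5.76 in Canada replicate 5 and 5.71 in Gansu replicate 3, and was off elsewhere. Smaller patterns were led by Asa0G01180.1, at 19.6 FPKM in Qinghai, 14.2 in Shandong replicate 8 and 11.98 in Canada replicate 5, and by Asa3G03066.1, at 29.3 in replicate 1 of the accessions without a province, 28.5 in Sichuan replicate 1 and 17.6 in Sichuan replicate 3. All of these genes were picked after their values were seen, as examples of each pattern.

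Sharing between accessions at 10 FPKM or more was rare, which the limit of 5 accessions for a gene favours. Above 0.1 FPKM it was wider, and 27 genes exceeded that level in all 7 accessions of the largest pattern. Of 3486 pairs of accessions, 52 shared at least 1 expressed gene, and among the 595 pairs of holders 543 shared none. Of the 52 pairs, 46 joined different sites and 20 joined China with another country. Xinjiang replicate 3 shared 7 genes with Greece replicate 1 (43.8% of its 16 and 70% of the 10 there) and 7 with Israel (43.8% and 77.8% of 9). Eygpt shared 6 with Greece replicate 1 and 6 with Xinjiang replicate 3. Hence the pairs that shared most were from different sites.

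Accessions that shared members were often alike over other genes, and many of these pairs came from the largest pattern. Across 35953 genes that are no members, the Pearson r of log2(FPKM + 1) between the libraries of a sharing pair ran from 0.782 to 0.974 with a median of 0.930, against 0.825 for pairs of holders that shared none and 0.834 for all pairs. It was above 0.9 in 36 of the 52 sharing pairs (69.2%) and in 22.4% of all pairs. All pairs within the 7 accessions of the largest pattern were sharing pairs, with r of 0.903 to 0.974. They are thus all among the 36 and weigh on this share and on the median. Other sharing pairs went down to 0.782. For the 19 pairs that shared at least 3 genes it was never under 0.903. Outside the 7 accessions these were only Shanxi replicate 2, Amrica and Turkey with each other, and Canada replicates 3 and 4. High likeness without sharing also occurred, up to 0.977 among holders that shared none. Genes are not independent replicates and pairs share accessions, so no test is given.

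**Figure D5:**
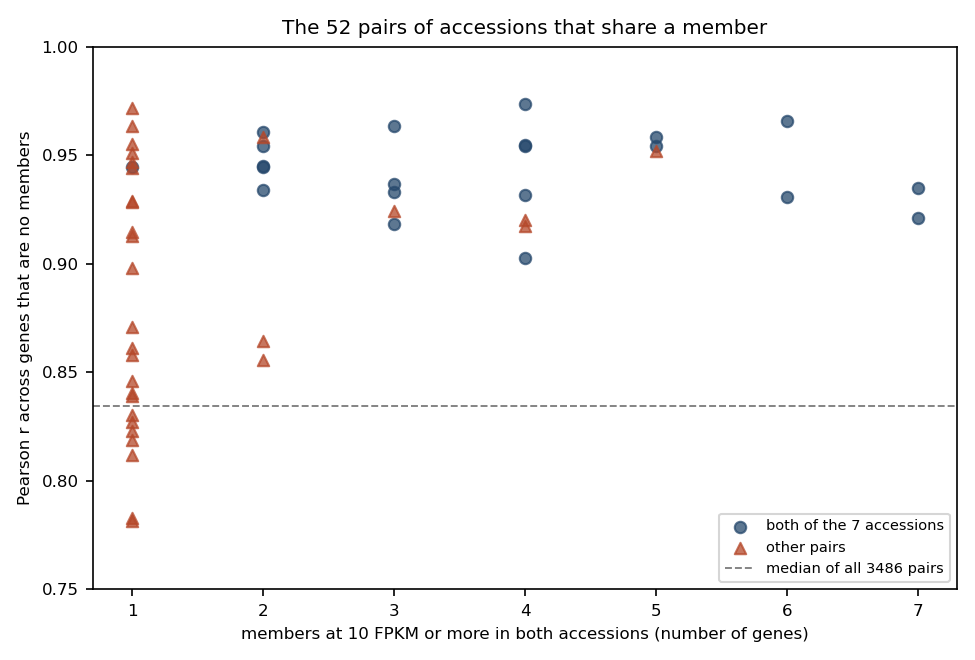
Pearson r between libraries across 35953 genes that are no members against the number of the 95 genes expressed in both accessions, for the 52 pairs that share at least 1; circles, both of the 7 accessions Xinjiang replicates 3, 6 and 8, Greece replicates 1 and 2, Israel and Eygpt; triangles, other pairs; dashed line, median of all 3486 pairs (0.834). The pairs that share 3 or more genes lie at or above 0.903, and pairs that share 1 spread from 0.782 upwards.

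Clustering by gene ID involved 9 of the 95 genes. These 9 (9.47%) had another of the 95 directly before or after in ID order, in 4 runs. For scale, the 95 were 0.165% of all genes. The median distance to the next one with the same chromosome number was 376.5 IDs. Without Greece replicate 2 the share next to another was 3.85%. Allowing gaps of 5 or of 10 IDs gave 5 runs with 11 genes. The chromosome number in the ID was 7 for 17 of the genes (0.219% of the 7755 genes with that number), 8 for 13 and 6 for 6 (0.0832% of 7211), and 9 had the number 0. Garlic has 8 chromosome pairs, so the number 0 names none of them. The order of those IDs, with the run Asa0G01630.1 and Asa0G01631.1, may therefore not be an order along a chromosome.

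The longest run, Asa7G01765.1 to Asa7G01767.1, followed the 7 accessions named above. Asa7G01765.1 was highest in Eygpt (11.995 FPKM, 56 reads) and lowest of the 7 in Israel (4.20). Asa7G01766.1 was highest in Greece replicate 2 (12.4 FPKM, 39 reads) and lowest in Xinjiang replicate 6 (1.65). Asa7G01767.1 was highest in Eygpt (12.2 FPKM, 77 reads) and lowest in Xinjiang replicate 6 (3.40), with 0.160 in Ukraine. All 3 were above 0.1 in all 7, but the order of the accessions differed between them.

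The other runs were pairs, each with 1 accession highest for both genes, and were named after their values were seen. Asa0G01630.1 and Asa0G01631.1 stood at 12.1 and 12.5 FPKM in Amrica and were at most 0.1 in every other accession. Asa8G04254.1 and Asa8G04255.1 stood at 10.88 and 10.96 FPKM in Xinjiang replicate 3, and the next values of both were in Eygpt, 8.08 and 7.05. Asa3G02554.1 and Asa3G02555.1 stood at 10.4 and 14.3 FPKM in Greece replicate 2 and shared 8 accessions above 0.1. Whether the counting used the strand is not given in the sources used here, so reads of adjacent or overlapping genes cannot be told apart.

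Genes next to a member were not used by the rule, and their levels were read in the accession where the member was highest. Of 180 flanking genes that are no members, 29 (16.1%) were at 0 in all accessions, against 17.6% of all genes. Of the 151 detected, 25 (16.6%) had their own highest value in the accession where the member was highest. Among 44940 neighbours of the 26206 other genes that reached 10 FPKM anywhere, this share was 5.43%. The difference lay with neighbours detected in under 42 accessions, 17 of 53 (32.1%) against 2.93%, while among those detected in 42 or more it was 8 of 98 (8.16%) against 6.22%. No test is given for these shares, because neighbours of 1 accession share a library.

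Some flanking genes were detected in every accession and peaked with the member. Next to Asa2G04868.1, Asa2G04867.1 stood at 190.7 FPKM in Xinjiang replicate 3, where the median of the other accessions was 11.8 and the next value 73.7. Next to Asa5G05670.1, which was at 10.3 FPKM in Amrica, Asa5G05669.1 stood at 266 FPKM there, with a median of 15.1 and a next value of 166. Next to Asa1G02582.1, Asa1G02581.1 stood at 42.2 FPKM in Shanxi replicate 2, with a median of 9.26 and a next value of 32.8. These neighbours were detected in all 84 accessions, whereas the members beside them were off in at least 75. They were picked after their values were seen.

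The rule's limits fell within a continuous range of values. Just above 10 FPKM lay Asa7G07425.1 at 10.22 and Asa4G03976.1 at 10.26, and just below it Asa1G02170.1 at 9.99 and Asa3G02648.1 at 9.96, and 157 genes off in at least 75 accessions had a maximum of 5 to 10. A total of 15 members were off in exactly 75 accessions, led by Asa1G04569.1 and Asa4G05126.1. A further 16 genes were off in 74, led by Asa2G03375.1 at 76.7 FPKM in Shanxi replicate 2 and Asa1G00043.1 at 57.0 in Sichuan replicate 2.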

How the data were processed

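Enlarging bulbs of 84 garlic accessions were sequenced. Per the labels 3 bulbs were taken of each accession, whereas the study describes another number of pooled plants and of accessions. Total RNA went into NEBNext Illumina libraries, and HISAT2 2.2.1.0, named in the submitters' processing notes, placed the reads on a garlic genome assembly. The deposited values are gene-level FPKM computed by the authors. The counting program and the scaling total are not given in the sources used here. Values were used as deposited, and no column of per-sample values was left out.

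Each accession has 1 library, so p-values measure differences between groups against the spread among accessions, which includes their genetic differences. The fit counted every accession as independent, although some may be the same clone or close relatives, so its p-values can be too small. The members, lists and tests were chosen with earlier results of these data known. Groups came from the collection site in the labels. Other countries were compared with China by limma (version 3.58.1 in R 4.3.3) with its trend option on log2(FPKM + 1), two-sided, for genes at 1 FPKM or more in at least 4 accessions, with Benjamini-Hochberg adjustment over all tested and a threshold of 0.05. The log2 scale understates changes of low genes. Named genes were the 10 of highest maximum, the 3 highest in each of the 3 leading accessions, the longest run, the 4 highest of those expressed in 5 accessions, those nearest each limit of the rule and every member called; exceptions are said in place. Gene lists by product name were not analysed here because the table pairs no IDs with names. Relative depth and reads came from the steps of low FPKM values, and intervals from reads cover counting error only. The scripts were tested on simulated data. Alternatives changed the limits of the rule, the scaling, the pseudocount, the filter and a covariate, and left out each accession. Tables were handled with pandas 2.3.3 and NumPy 2.4.6 under Python 3.11.15, intervals came from SciPy 1.17.1, and figures from Matplotlib 3.10.9.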

Additional observations from a re-analysis of the deposited data

Results flagged for a closer look

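Within the 6 sites of 4 to 10 accessions, the number of members expressed, the number above 0.1 FPKM and the share of FPKM in members were screened for an accession far from the rest of its site, by Dixon's ratio. Of 18 such groups 3 stood out, 2 of them through the same accession. Chance gives about 1 in 20 for independent measurements, but these measures are built from the values that chose the genes, and a site with a single holder always stands out, so that rate does not apply and nothing is read from the number. Hebei replicate 1 expressed 2 of the 95 genes, Asa8G04598.1 at 37.3 FPKM and Asa5G01214.1 at 15.9, whereas the other 3 accessions from Hebei expressed none. In the same accession members made up 0.00525% of the FPKM sum, and at most 4.63e-05% in the others from Hebei. In Shanxi replicate 2 members made up 0.0299% of the FPKM sum, and the next accession from Shanxi, replicate 3, had 0.0061%. The levels of single members were not screened, since the rule selects genes with such values.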

How the results depend on the processing

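The number of genes that met the rule depended on its limits. It was 231 with 5 FPKM as expressed, 36 with 20 FPKM, 244 with off at 0.5 FPKM and 178 with 70 accessions off, against 95. With off at 0 it was 90, with equal FPKM sums 95 and with median-ratio scaling 104, and 92 of the 95 genes were kept under either scaling. With 5 FPKM the share of genes expressed in 1 accession was 54% (the 200 highest). With 20 FPKM 0 of 36 genes were next to another. With off at 0.5 FPKM and all 244 genes, 41.5% of the expressed values were in other countries. Xinjiang replicate 3 expressed the most genes under each of these settings except off at 0.5 FPKM, where Canada replicate 5 led with 35 against 25. Leaving out each accession in turn (at most 9 accessions above 0.1 FPKM) gave 92 to 109 genes, 59.6% to 68.4% expressed in 1 accession, 3.85% to 9.78% next to another, and 44.3% to 59.5% of values in other countries. In limma, the total of 1323 became 1554 with a pseudocount of 0.1, 1493 without the filter, 1188 with median-ratio scaling and 1321 with the column block, and 533 to 2080 when an accession was left out, an alternative added after the data were seen. The called members were 10, 11, 8 and 19 in the same order, and 3 to 27 when an accession was left out. No paired analysis was possible, because each library is from a different accession and the labels define no pairs. Weak levels are limited by depth: 1 read in the shallowest library exceeds 0.1 FPKM for 66 of the 75 genes with a step.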

Other observations

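A few accessions held many members at low levels without expressing any at 10 FPKM. Gansu replicate 1, Shandong replicate 1 and Sichuan replicate 2 each had 6 of the 95 genes above 0.1 FPKM and none at 10 or more.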
